A study of Mus musculus with 20 samples.

Results

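The question here was which parts of the liver's fasting response are smaller or larger in mice without PLIN2. The measure was the genotype by feeding interaction: for each gene, the log2 fold change of fasted over fed livers in Plin2-null mice minus the same log2 fold change in Plin2+/+ mice. It used all 20 of the 20 liver RNA-seq libraries of the study, 5 in each of 4 groups, and 16312 of the 55487 genes in the count table had enough reads to be tested. The mice were female, 15 weeks old and of the C57BL/6N strain, and had either eaten chow or been fasted for 24 h. Labels of 10 libraries name Plin2+/+ mice, 5 fed and 5 fasted. Those of the other 10, again 5 fed and 5 fasted, carry only the feeding state; since the design text knows no other genotype than Plin2-/-, these mice were taken to be Plin2-/- and are called Plin2-null. The sources used here do not give how the null allele was made, and nothing in the labels links libraries by litter or date, which means that the p-values reflect sample-to-sample spread.

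PLIN2 coats the lipid droplets of hepatocytes and limits the access of lipases to the stored triglyceride. During a fast, fatty acids from adipose tissue reach the liver, where they are stored in droplets, oxidised in mitochondria and peroxisomes under the nuclear receptor PPARα, and turned into ketone bodies, while insulin-driven lipogenesis under SREBP1c and sterol synthesis under SREBP2 are switched down. A positive interaction has 2 readings, which depend on the direction of the response: for a gene that falls on fasting it is a blunted fall, and for a gene that rises it is an enlarged rise.

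Total counts ran from 25506471 to 65579038 per library. The 9 hepatocyte marker genes tested summed to 91000 to 172000 CPM (gene counts scaled to a common library size) in every library. Plin2 itself was measured at 196 to 319 CPM in Plin2+/+ fed, 1092 to 1696 in Plin2+/+ fasted, 15.3 to 32.1 in Plin2-null fed and 75.1 to 130.4 in Plin2-null fasted livers, so that each Plin2-null library lay below each Plin2+/+ library of its feeding state. Its interaction was -0.32 ± 0.29 (SE), with an edgeR adjusted p of 0.609. One property of the libraries ran through all results: the interaction followed the GC content of the genes. With genes split into 10 equal classes by GC content, the lowest class had a median interaction of -0.218 and the highest one of 0.375 (log2). The libraries of replicates 1 and 2 of Plin2+/+ fasted had the lowest slopes of log2 CPM on GC content, and a gene coded as 18S ribosomal RNA-like took 24.8% of the counts in replicate 3 of Plin2-null fasted, against 4.87% as the lowest share. The main results are therefore given beside the interaction after each library's GC trend was removed and after the 2 Plin2+/+ fasted libraries with the lowest slopes were left out.

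**Figure D1:**
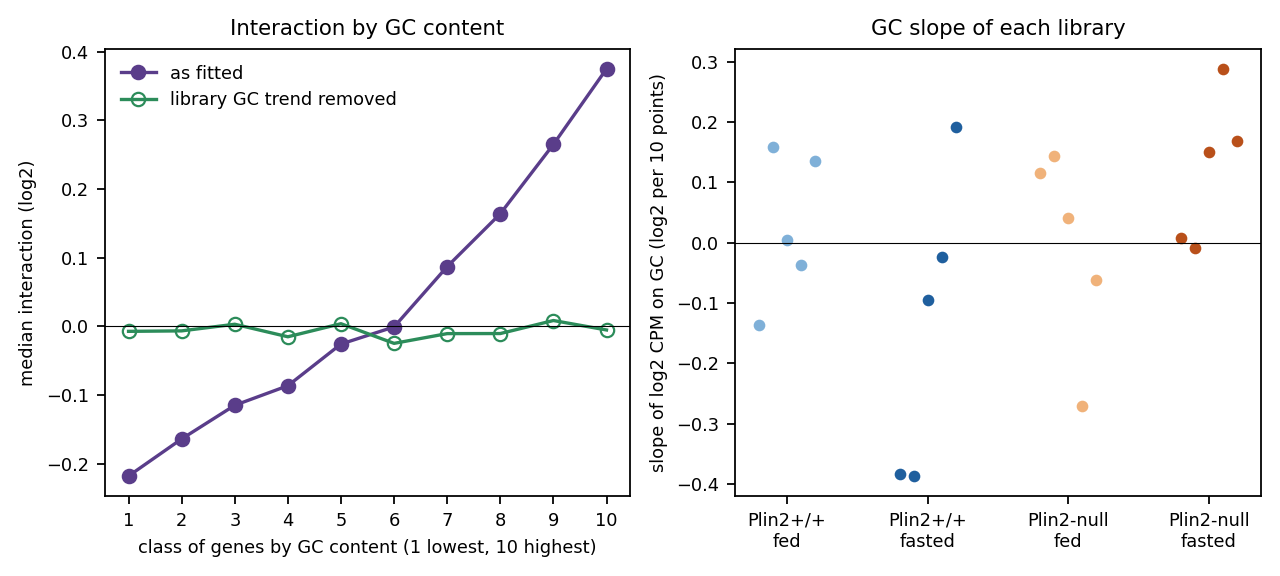
Left, the median genotype by feeding interaction (log2) in 10 equal classes of genes ordered by GC content, as fitted and after removal of each library's GC trend. Right, the slope of log2 CPM on GC content in each of the 20 libraries, 1 point per library. The medians run from -0.218 to 0.375 as fitted, and 2 Plin2+/+ fasted libraries lie lowest on the right.

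No single gene passed the test of the interaction over all genes. In edgeR's quasi-likelihood test 0 of 16312 genes (0%) had an adjusted p under 0.05, the smallest adjusted p was 0.0602, and 2250 genes (13.8%) had an unadjusted p under 0.05, of which 1143 (7.01% of all genes) were above 0 and 1107 (6.79%) below. This balance moved with the scaling: 563 were above 0 and 1023 below with library size alone, 295 and 1196 on log2(TPM + 1) values, and 350 and 1154 on log2(TPM + 0.1) values. DESeq2 called 63 of 15990 genes (0.394%), 37 above 0 (0.231%) and 26 below (0.163%). With the GC trend removed, 884 genes above 0 (5.42%) and 1150 below (7.05%) had an unadjusted p under 0.05, and without the 2 Plin2+/+ fasted libraries of lowest GC slope there were 1162 in both directions. The interaction of every single gene named here is therefore an estimate that did not pass adjustment in the main test, unless a call is named. Counts over gene lists are to be read against all genes, of which 51.8% had an interaction above 0. At an unadjusted p under 0.05 the shares to read them against are the 7.01% above 0 and 6.79% below. The fasting responses themselves were large: 6957 genes (42.6%) were called in Plin2+/+ and 5896 (36.1%) in Plin2-null livers, and 4216 genes were called in both, which is 60.6% of the first list and 71.5% of the second. Across the 16312 genes, which are not independent replicates, the responses of the 2 genotypes had a Pearson r of 0.842 and a Spearman rho of 0.739. Between genotypes, edgeR called 3 genes in fed livers (0.0184%), 2 higher in Plin2-null livers (0.0123%) and 1 lower (0.00613%), and 528 in fasted livers (3.24%), 246 higher (1.51%) and 282 lower (1.73%). The fasted calls numbered 4 without the 2 Plin2+/+ fasted libraries of lowest GC slope, so no call of that comparison is used here.

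**Figure D2:**
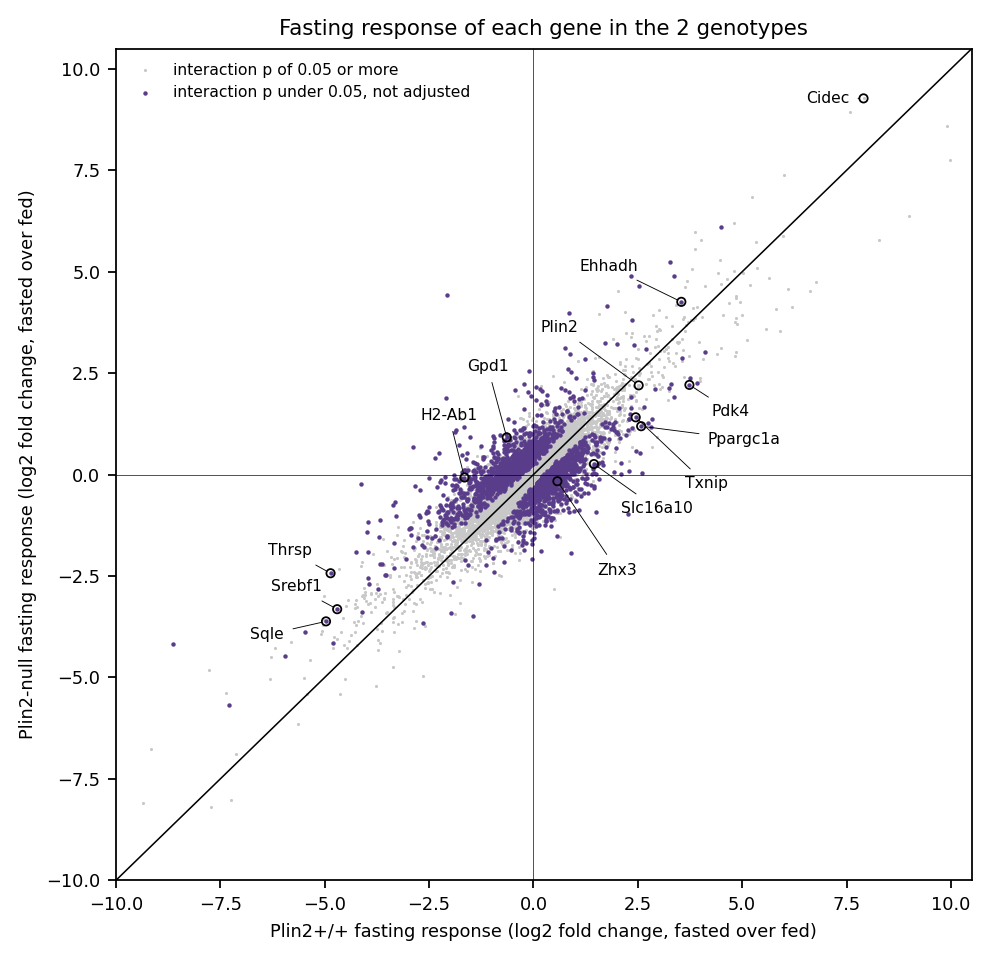
Log2 fold change of fasted over fed livers in Plin2+/+ (horizontal) and Plin2-null mice (vertical), 1 point for each of 16312 genes, with the line of equal responses. The 2250 genes with an unadjusted interaction p under 0.05 are dark. Thrsp, Srebf1 and Sqle lie above the line among the falling genes, Ehhadh above it among the rising genes, and Pdk4, Txnip and Ppargc1a below it.

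Relative to the median of all genes, blunted responses outnumbered enlarged ones. To sort genes by direction, the response was averaged over both genotypes. With equal group sizes this average is independent of the interaction only if the spread is also equal in both genotypes. The GC slopes of fasted libraries ran from -0.387 to 0.192 in Plin2+/+ and from -0.00973 to 0.288 in Plin2-null livers. The part of unequal spread in the shares below was not tested. The averaged response was called for 8615 genes (52.8%), 4258 rising and 4357 falling. With library size alone 2250 rose and 5828 fell, and on log2(TPM + 1) values, whose median averaged response over all genes was -0.133, 1810 rose and 5865 fell. Of the 4357 falling genes 2740 (62.9%) had an interaction of the opposite sign, that is a smaller fall in Plin2-null livers, and 1617 (37.1%) a larger one. Of the 4258 rising genes 2441 (57.3%) had a smaller rise and 1817 (42.7%) a larger one. At an unadjusted p under 0.05 the falling genes held 444 blunted and 155 enlarged responses, and the rising genes 434 and 221. With the GC trend removed, 60.4% of the falling and 57.4% of the rising genes were blunted. These shares moved with the scaling: on log2(TPM + 1) values, where the median interaction of all genes was -0.0797, 43.6% of the falling and 69.9% of the rising genes were blunted. Counted against each fit's own median of all genes, the shares were 61.0% and 59.4% in the main fit and 58.2% and 61.0% on log2(TPM + 1). Over all alternatives they stayed between 58.2% and 64.2% for falling and between 56.1% and 62.9% for rising genes.

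In the main test the size of the shortfall in log2 units grew with the depth of the fall. The 338 genes whose averaged response was under -2 had a median log2 fold change of -2.90 in Plin2+/+ and -2.43 in Plin2-null livers, a median interaction of 0.452, and 75.7% of them were above 0. For the 1000 genes between -2 and -1 the medians were -1.46 and -1.19 and the median interaction was 0.253. For the 1983 genes between -1 and -0.5 they were -0.767 and -0.64, with 0.134. Whether the shortfall also grew as a share of the fall was not tested. The 223 genes that rose by more than 2 had medians of 2.98 and 2.90 and a median interaction of -0.0571. Among these classes of genes the steepest falls had the largest median difference, and the median of the steepest rises was near 0. After removal of the GC trend the medians of the deepest falls and the steepest rises were 0.412 and -0.124. Without the 2 Plin2+/+ fasted libraries of lowest GC slope the median of the deepest falls was 0.569. The median of the steepest rises was not stable in sign: it was -0.252 without replicate 4 of Plin2+/+ fed and 0.107 without replicate 3 of Plin2+/+ fasted. On log2(TPM + 1) and log2(TPM + 0.1) values the deepest falls had a median of 0.15 on both scales and the steepest rises medians of -0.242 and -0.365, so there the rises had the larger median difference.

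**Figure D3:**
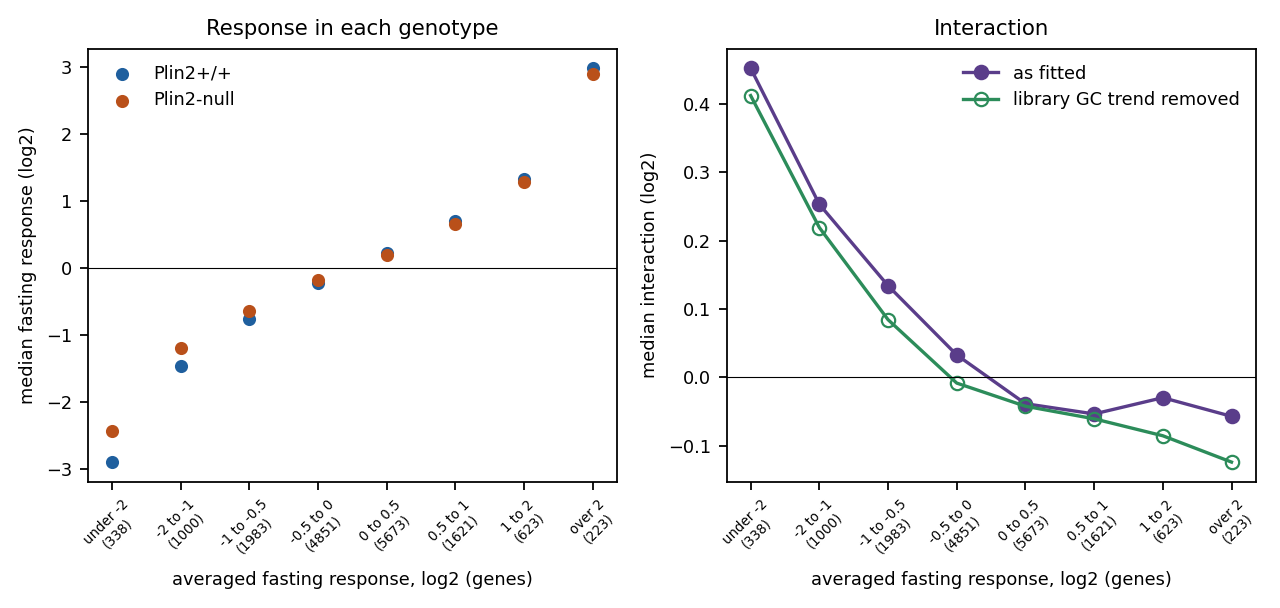
Genes grouped by their fasting response averaged over both genotypes (log2; the number of genes is in parentheses). Left, the median response in each genotype; right, the median interaction as fitted and after removal of each library's GC trend. Under -2 the medians are -2.90 in Plin2+/+ and -2.43 in Plin2-null livers, and over 2 they are 2.98 and 2.90.

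Genes of MHC class II antigen presentation were among those with the smallest interaction p-values, and H2-Ab1 had the smallest of all. Class II molecules present peptides to CD4+ T cells and are carried by B cells, dendritic cells and macrophages; their genes are switched on together by CIITA through the X and Y boxes, short elements upstream of the start site. Because several members moved together, the 150 bases upstream of the start of 2 of them are shown, from RefSeq sequence of GRCm38.p6, 5′ to 3′, with capitals for the letters CTGATTGG, which hold the inverted CCAAT of the Y box, and for GCAACT, which lies in the X box region. Entries of the promoter table matched H2-Aa and H2-Eb1; H2-Ab1 and Cd74 are named only.
H2-Aa, chr17:34287824-34287973, minus strand: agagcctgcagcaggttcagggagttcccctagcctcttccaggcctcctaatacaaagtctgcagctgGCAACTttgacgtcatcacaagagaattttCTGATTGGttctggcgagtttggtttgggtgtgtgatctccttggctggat
H2-Eb1, chr17:34305717-34305866, plus strand: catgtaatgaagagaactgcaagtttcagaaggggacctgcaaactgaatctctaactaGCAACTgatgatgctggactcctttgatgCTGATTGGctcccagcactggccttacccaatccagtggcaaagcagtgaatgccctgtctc
On either strand, CTGATTGG stood in 1039 of 32851 such windows (3.16%), GCAACT in 1771 (5.39%), and both in 55 (0.167%). The motifs do not overlap in either promoter, and a match describes the letters only. The letters counted are ones that both promoters shown hold, so these shares are no test of the match.

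H2-Ab1, the beta chain of the class II molecule I-A, was measured at 12.3, 16.9, 20.1, 19.2 and 14.4 CPM in the 5 Plin2+/+ fed livers and at 4.57, 5.34, 4.34, 7.72 and 4.60 after fasting. In Plin2-null livers it was 13.4, 15.1, 13.2, 9.46 and 11.8 fed and 8.40, 17.4, 12.5, 11.2 and 10.6 fasted. The Plin2+/+ groups did not overlap, the Plin2-null groups did, and all 5 Plin2-null fasted livers lay above all 5 Plin2+/+ fasted livers. Its fasting response was -1.65 ± 0.19 (SE, log2) in Plin2+/+, where it fell, and -0.07 ± 0.19 in Plin2-null livers. The interaction was 1.58 ± 0.27, with an edgeR adjusted p of 0.0602 and a DESeq2 adjusted p of 0.00011. It passed in edgeR without a filter on low counts (adjusted p 0.0196), with a stricter one (0.0489), and when replicate 1 of Plin2+/+ fed, replicate 4 of Plin2+/+ fasted or replicate 1 of Plin2-null fasted was left out, and it stayed between 1.41 and 1.74 whichever library was left out. The estimate was 1.28 with the GC trend removed and 1.52 without the 2 libraries of lowest GC slope.

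H2-Eb1, the beta chain of I-E, ran from 10.2 to 15.5 CPM in Plin2+/+ fed and from 3.10 to 6.04 in Plin2+/+ fasted livers, against 7.72 to 10.6 and 5.99 to 13.7 in Plin2-null livers. The interaction was 1.33 ± 0.30 (SE). Cd74, the invariant chain that guides class II molecules to the endosome, was 36.1, 41.6, 50.9, 65.9 and 41.2 CPM in Plin2+/+ fed and 18.4, 25.9, 19.3, 24.3 and 17.0 in Plin2+/+ fasted livers, and 34.0, 42.5, 39.9, 32.4 and 33.4 fed and 26.8, 52.9, 32.3, 29.1 and 34.2 fasted in Plin2-null livers. For both genes the Plin2+/+ groups stood apart and the Plin2-null groups overlapped. The interaction of Cd74 was 1.11 ± 0.25, that of the alpha chain H2-Aa 1.23 ± 0.33 and that of the coactivator Ciita 1.12 ± 0.32. DESeq2 called H2-Eb1 and Cd74 (adjusted p 0.024 and 0.026) and not H2-Aa or Ciita (0.059 and 0.086).

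Over the list of MHC class II and dendritic cell markers, 9 genes were tested. They include H2-Ab1, H2-Eb1, Cd74, H2-Aa and Ciita, described above, so the counts of the list are not separate from those values. The dendritic cell markers Itgax, Flt3, Xcr1 and Siglech each overlapped between the genotypes in fasted livers. Fasting lowered 7 of the 9 in Plin2+/+ livers, where 21.7% of all genes fell, and 2 of the 9 in Plin2-null livers, where 18.1% did. The interaction was above 0 for 8 of 9 (51.8% of all genes), with an unadjusted p under 0.05 for 6, and the median was 1.12 against 0.0165 for all genes. The median was 0.884 with the GC trend removed and 1.17 without the 2 libraries of lowest GC slope, and it was above 0 in all 33 alternatives, from 0.411 to 1.22. Summed over the list, Plin2+/+ livers held 93.3 to 147 CPM fed and 31.8 to 53.4 fasted, and Plin2-null livers 79.0 to 96.6 fed and 58.2 to 119 fasted.

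B cell genes were measured at far lower counts. Ms4a1, which encodes CD20, was 0.933, 0.824, 0.894, 0.878 and 0.725 CPM in Plin2+/+ fed and 0.0678, 0.225, 0.0885, 0.3 and 0.439 in Plin2+/+ fasted livers, and ran from 0.526 to 0.912 in Plin2-null fed and from 0.302 to 0.895 in Plin2-null fasted livers. The fed and fasted Plin2+/+ groups were separate and the Plin2-null groups overlapped. The interaction was 1.55 ± 0.50 for Ms4a1, 1.65 ± 0.67 for Cd79a and 1.17 ± 0.55 for Cd79b, the signalling chains of the B cell receptor (SE, log2). Without the 2 libraries of lowest GC slope these were 1.22, 0.98 and 0.84, so the estimate of Cd79a moved by more than 1.5 times. Cd79a ran from 0.752 to 1.34 CPM in Plin2+/+ fed, 0.0226 to 0.852 in Plin2+/+ fasted, 0.429 to 0.943 in Plin2-null fed and 0.505 to 1.38 in Plin2-null fasted livers, so its groups overlapped in all 4 comparisons. Cd3g, a chain of the T cell receptor complex, had 0.95 ± 0.43, and Btla, an inhibitory receptor of lymphocytes named here after its values were seen, 1.97 ± 0.39. Of 12 lymphocyte markers tested, 8 were above 0 and 5 had an unadjusted p under 0.05, all above 0, with a median of 0.545. Their summed level was 12.6 to 15.5 CPM in Plin2+/+ fed, 6.19 to 8.83 in Plin2+/+ fasted, 10.9 to 15.1 in Plin2-null fed and 8.20 to 12.3 in Plin2-null fasted livers.

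In bulk liver, fewer cells of a type and less RNA per cell cannot be told apart. Beside the class II genes, the summed Kupffer cell and macrophage markers were 492 to 728 CPM in Plin2+/+ fasted and 608 to 715 in Plin2-null fasted livers, and the fed ranges were 722 to 953 and 629 to 1150. Of 14 such markers 9 were above 0, with 1 in each direction at an unadjusted p under 0.05 and a median of 0.217 (0.0944 with the GC trend removed). Cholangiocyte markers were above 0 for 6 of 6 genes, with a median of 0.624, and summed to 13.2 to 24.2 CPM in Plin2+/+ fasted and 17.8 to 27.1 in Plin2-null fasted livers. Neutrophil and monocyte markers summed to 52.4 to 97.0 and 52.9 to 92.1 CPM in the 2 fasted groups. Of 9 tested 7 were above 0, with 1 in each direction at an unadjusted p under 0.05. Their median was 0.290 (0.497 with the GC trend removed). S100a8, S100a9 and Retnlg were each higher in every Plin2-null fasted than in every Plin2+/+ fasted liver. The share of all genes that separate in this way was not counted, so these 3 cannot be read as a result for the list. The other markers overlapped there, and Chil3 lay between -2.87 and -1.30 when single libraries were left out. Sinusoidal endothelial markers had a median interaction of 0.063 and red blood cell genes one of 0.417 (5 genes). The part of any of these in the class II difference was not tested.

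**Figure D4:**
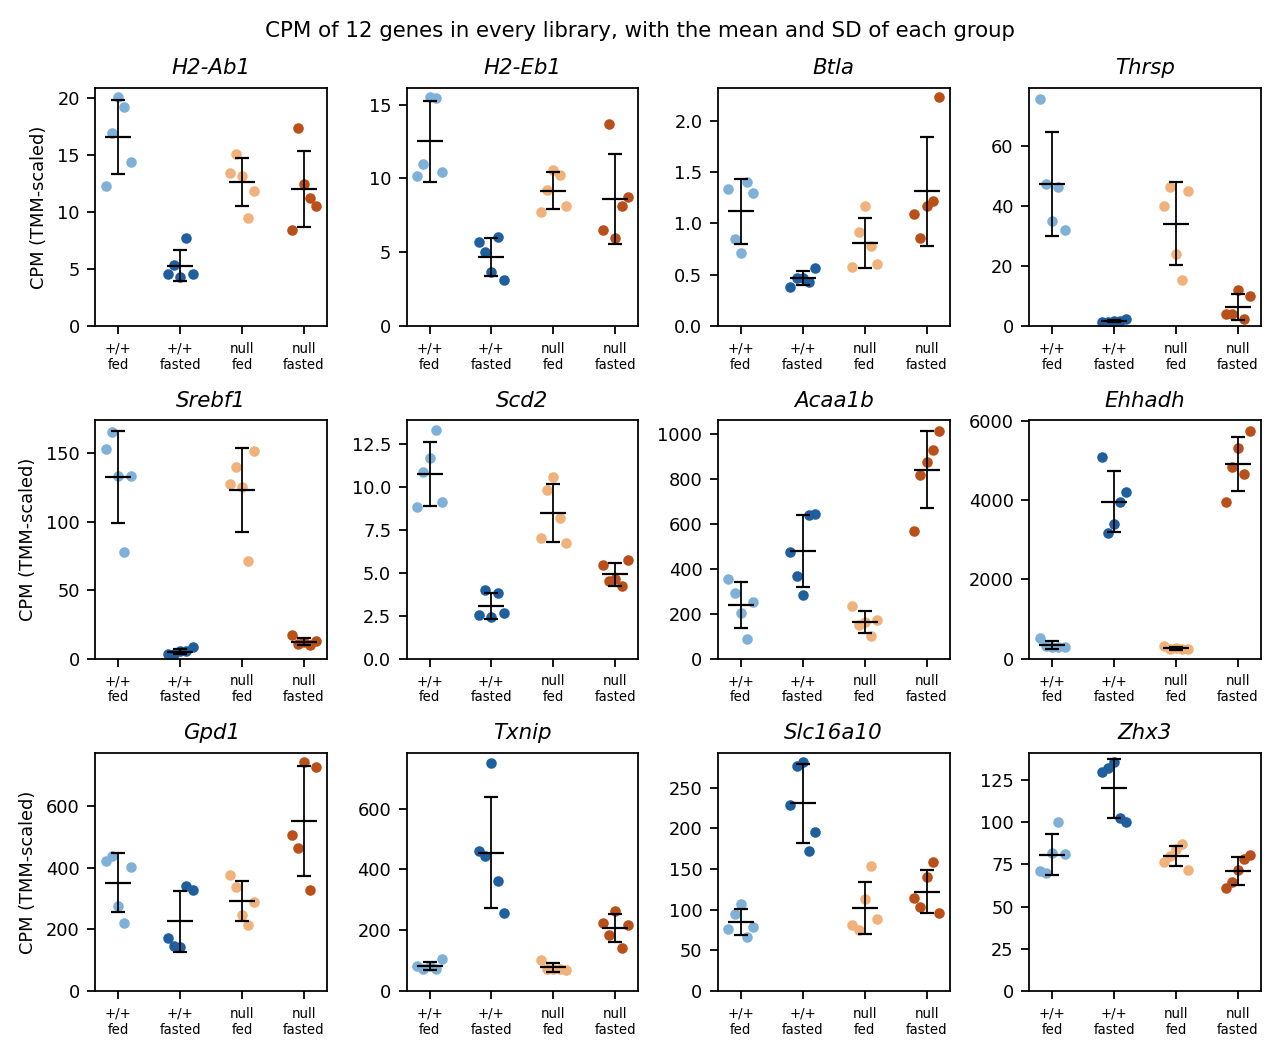
CPM (scaled by TMM) of 12 genes in each of the 20 libraries, 1 point per library, with the mean and SD of each group of 5. H2-Ab1 runs from 4.34 to 7.72 in Plin2+/+ fasted and from 8.40 to 17.4 in Plin2-null fasted livers, and Srebf1 from 3.02 to 8.37 and from 9.95 to 16.9.

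Genes of fatty acid synthesis fell in both genotypes, with interactions mostly above 0. Srebf1, whose product SREBP1c drives the lipogenic genes in response to insulin, was 153, 165, 134, 78.0 and 133 CPM in Plin2+/+ fed and 3.62, 3.02, 5.16, 5.44 and 8.37 in Plin2+/+ fasted livers. In Plin2-null livers it was 128, 139.8, 125, 71.6 and 152 fed and 16.9, 10.3, 11.7, 9.95 and 13.0 fasted. The fed groups overlapped, and each Plin2-null fasted liver lay above each Plin2+/+ fasted liver. Srebf1 fell by 4.70 ± 0.29 on the log2 scale in Plin2+/+ and by 3.32 ± 0.27 in Plin2-null livers, an interaction of 1.38 ± 0.36 (SE) with an edgeR adjusted p of 0.216 and a DESeq2 adjusted p of 0.041. It was 1.12 with the GC trend removed and 1.07 without the 2 libraries of lowest GC slope.

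Thrsp, also known as Spot 14, a lipogenic regulator under insulin control, showed the larger gap. It was 75.7, 47.5, 35.0, 46.3 and 32.2 CPM in Plin2+/+ fed and 1.20, 1.41, 1.62, 1.63 and 2.32 in Plin2+/+ fasted livers, against 40.0, 46.4, 23.9, 15.3 and 45.1 fed and 3.99, 3.86, 11.9, 2.28 and 9.90 fasted in Plin2-null livers. Both genotypes' fed and fasted groups were separate, and the fasted groups overlapped only where the lowest Plin2-null liver met the highest Plin2+/+ liver. Thrsp fell by 4.86 ± 0.47 and by 2.43 ± 0.41, an interaction of 2.43 ± 0.59 (SE) with an adjusted p of 0.215 in edgeR and 0.026 in DESeq2. Scd2, a stearoyl-CoA desaturase, had an interaction of 1.03 ± 0.24, with falls of 1.81 ± 0.17 and 0.78 ± 0.17. Fasn, the fatty acid synthase itself, ran from 38.0 to 106 CPM in Plin2+/+ fasted and from 83.2 to 157 in Plin2-null fasted livers and had an interaction of 0.97 ± 0.39.

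Of the 17 genes of fatty acid synthesis tested, 13 fell in each genotype, where 21.7% of all genes fell in Plin2+/+ and 18.1% in Plin2-null livers. The interaction was above 0 for 15 of 17, and 7 had an unadjusted p under 0.05, all above 0. The 7 were Srebf1, Thrsp, Fasn, Scd1 (1.43), Scd2, Mid1ip1 (1.07), which activates acetyl-CoA carboxylase, and Elovl5 (0.47), a fatty acid elongase that rose in both genotypes. The median interaction of the list was 0.376, or 0.378 with the GC trend removed and 0.436 without the 2 libraries of lowest GC slope. With the GC trend removed 12 of 17 were above 0, and 6 had an unadjusted p under 0.05, all above 0. Khk, ketohexokinase of fructose metabolism, fell by 1.37 ± 0.25 in Plin2+/+ livers and changed by -0.28 ± 0.25 in Plin2-null livers, where the 5 fasted values were 75.6, 69.1, 150.0, 66.4 and 162 CPM. Its interaction of 1.09 ± 0.35 lay at 0.74 with the GC trend removed. Angptl8, an insulin-induced inhibitor of lipoprotein lipase, had an interaction of 2.35 ± 1.03 on values that spread widely within groups, from 0.294 to 2.81 CPM in Plin2+/+ fasted and from 2.63 to 9.66 in Plin2-null fasted livers.

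Genes of sterol synthesis and uptake also fell in both genotypes, with interactions mostly above 0. Sqle, squalene epoxidase, was 84.9, 100.3, 57.6, 70.1 and 117 CPM in Plin2+/+ fed and 3.14, 2.22, 2.65, 3.64 and 2.19 in Plin2+/+ fasted livers, and 89.8, 131, 49.6, 108 and 93.4 fed and 10.8, 9.61, 5.87, 2.66 and 9.53 fasted in Plin2-null livers. Of the Plin2-null fasted livers 1 lay inside the Plin2+/+ fasted range and 4 above it. Sqle fell by 4.97 ± 0.36 and by 3.62 ± 0.33, an interaction of 1.35 ± 0.44 (SE) with an edgeR adjusted p of 0.253. The interaction was 1.59 ± 0.55 for Mvd, mevalonate diphosphate decarboxylase, 1.47 ± 0.57 for Fdps, farnesyl diphosphate synthase, and 0.64 ± 0.19 for Tm7sf2, a sterol C14 reductase. Of 25 genes tested 24 fell in each genotype, 21 had an interaction above 0, and 7 had an unadjusted p under 0.05, all above 0. Over all genes, 21.7% fell in Plin2+/+ and 18.1% in Plin2-null livers. The list's median of 0.426 became 0.280 with the GC trend removed, a move of over 1.5 times, and 0.340 without the 2 libraries of lowest GC slope.

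**Figure D5:**
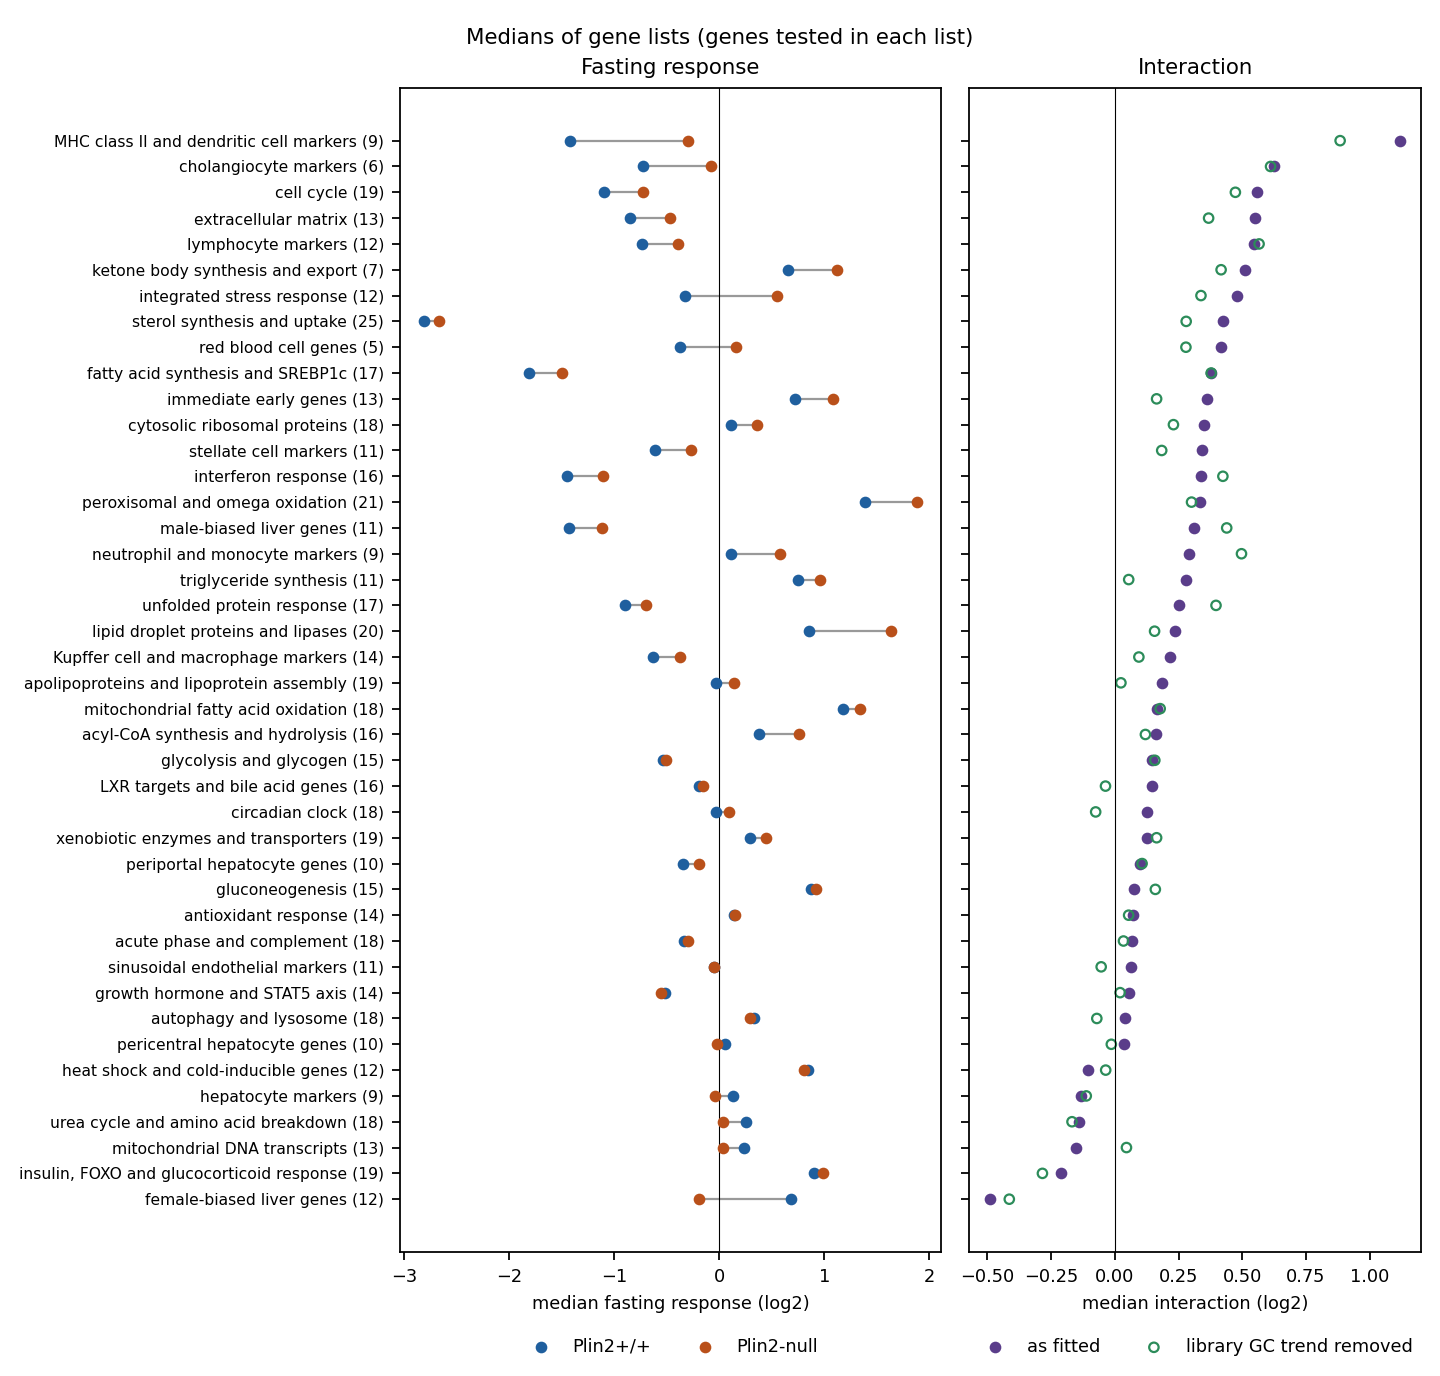
Left, the median fasting response (log2) of 42 gene lists with at least 5 genes tested, in Plin2+/+ and Plin2-null livers. Right, the median interaction as fitted and after removal of each library's GC trend. MHC class II and dendritic cell markers lie highest at 1.12, and the insulin, FOXO and glucocorticoid list lies at -0.21.

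Among rising genes, those of peroxisomal and omega oxidation had larger estimates of the rise in Plin2-null livers, while their summed fasted levels overlapped between genotypes. Ehhadh, the bifunctional enzyme of peroxisomal beta-oxidation and a PPARα target, ran from 286 to 513 CPM in Plin2+/+ fed, 3166 to 5103 in Plin2+/+ fasted, 233 to 321 in Plin2-null fed and 3962 to 5743 in Plin2-null fasted livers. The fasted groups overlapped. It rose by 3.54 ± 0.18 and by 4.26 ± 0.19, an interaction of 0.72 ± 0.23 (SE). Acaa1b, a peroxisomal thiolase, was 356, 292, 205, 88.0 and 253 CPM fed and 477, 367, 283, 638 and 643 fasted in Plin2+/+ livers, and 234, 148, 161, 101 and 171 fed and 567, 820.4, 877, 932 and 1016 fasted in Plin2-null livers. Its fed and fasted groups overlapped in Plin2+/+ livers and stood apart in Plin2-null livers, and the interaction was 1.36 ± 0.43. Of 21 genes on the list 18 rose in each genotype, where 20.9% of all genes rose in Plin2+/+ and 18% in Plin2-null livers, 20 had an interaction above 0, and 6 had an unadjusted p under 0.05. The median was 0.335, or 0.301 with the GC trend removed. Summed over the list, Plin2+/+ livers held 3980 to 8980 CPM fed and 33000 to 39000 fasted. Plin2-null livers held 4740 to 6040 fed and 31200 to 36600 fasted, so the fasted sum was not higher without PLIN2. Cyp4a14, an omega-hydroxylase and PPARα target, had an interaction of 0.19 ± 0.63 that was -0.271 without replicate 1 of Plin2+/+ fed and lay between -0.271 and 0.66 when single libraries were left out, so that no direction can be given, with 13533 to 19075 CPM in Plin2+/+ fasted and 10489 to 12569 in Plin2-null fasted livers.

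Most genes of mitochondrial oxidation and of ketone body synthesis and export also had interactions above 0. Hadh, the 3-hydroxyacyl-CoA dehydrogenase of mitochondrial beta-oxidation, was 173, 190.4, 196, 138 and 179 CPM fed and 154, 196, 184, 264 and 219 fasted in Plin2+/+ livers, and 165, 176, 158, 123 and 149 fed and 239, 281, 335, 271 and 263 fasted in Plin2-null livers. It rose in Plin2-null livers by 0.85 ± 0.14 and changed by 0.22 ± 0.14 in Plin2+/+ livers, an interaction of 0.63 ± 0.19 (SE). Acsl1, which activates long-chain fatty acids, had 0.52 ± 0.20, and Cpt1a, the carnitine transferase that admits them to mitochondria, 0.25 ± 0.15. Of 18 genes of mitochondrial fatty acid oxidation 16 were above 0, 2 had an unadjusted p under 0.05, and the median was 0.167. Of 7 ketone body genes 6 were above 0, with a median of 0.512 (0.417 with the GC trend removed), and 3 had an unadjusted p under 0.05, among them the monocarboxylate transporter Slc16a1 (0.47 on the log2 scale) and Slc16a6, a transporter of beta-hydroxybutyrate. Slc16a6 fell by 1.15 ± 0.34 in Plin2+/+ livers and changed by 0.19 ± 0.33 in Plin2-null livers, an interaction of 1.34 ± 0.48. The hepatokine Fgf21, a PPARα target, rose in both, with an interaction of 1.09 ± 0.83 that lay between 0.63 and 2.29 when single libraries were left out. Summed levels of mitochondrial oxidation genes were 6480 to 7570 CPM in Plin2+/+ fasted and 6580 to 7850 in Plin2-null fasted livers. Those of ketone body genes were 6070 to 7390 and 6410 to 7330, so the fasted sums overlapped for both lists.

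Most lipid droplet genes and lipases had interactions above 0. Cidec, a droplet fusion protein, rose furthest of the list: from 0.0804 to 0.37 CPM fed it reached 42.5, 28.4, 84.4, 28.5 and 94.4 in Plin2+/+ livers, and from 0 to 0.245 CPM fed it reached 65.3, 47.5, 97.7, 119 and 91.9 in Plin2-null livers. The fasted groups overlapped and the interaction was 1.37 ± 0.82 (SE). Plin5, the perilipin of oxidative tissues, rose by 2.97 ± 0.23 and 3.54 ± 0.24, an interaction of 0.57 ± 0.30 that was 0.22 with the GC trend removed. Bscl2, seipin, which shapes nascent droplets, rose by 0.50 ± 0.13 in Plin2-null livers and changed by -0.08 ± 0.13 in Plin2+/+ livers, an interaction of 0.58 ± 0.18. Fitm1, which partitions triglyceride into droplets, had 2.44 ± 0.77 at 2.76 CPM or less in every library. Of 20 droplet genes and lipases tested 16 were above 0 and 4 had an unadjusted p under 0.05, with a median of 0.237 or, with the GC trend removed, 0.156.

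Agpat2, which acylates lysophosphatidic acid on the way to triglyceride, had opposite responses, each called. It was 89.0, 93.2, 99.5, 81.9 and 93.5 CPM fed and 62.9, 71.4, 60.0, 91.9 and 83.3 fasted in Plin2+/+ livers, and 98.6, 87.3, 94.6, 80.06 and 88.3 fed and 131, 127, 152, 94.6 and 139 fasted in Plin2-null livers. All Plin2-null fasted livers lay above all Plin2+/+ fasted livers. It fell by 0.31 ± 0.12 in Plin2+/+ and rose by 0.52 ± 0.12 in Plin2-null livers, an interaction of 0.83 ± 0.17 (SE) with an adjusted p of 0.215 in edgeR and 0.019 in DESeq2. With the GC trend removed it was 0.50, a move of over 1.5 times, and without the 2 libraries of lowest GC slope it was 0.74. Of the 11 triglyceride synthesis genes tested, 8 were above 0 and 3 had an unadjusted p under 0.05, all above 0: Agpat2, Gpat4 and Dgat2. Gpat4, which acylates glycerol-3-phosphate, rose by 0.74 ± 0.14 and by 1.24 ± 0.14, an interaction of 0.49 ± 0.20. Dgat2, which adds the last acyl chain, fell by 0.86 ± 0.12 and by 0.48 ± 0.11, an interaction of 0.39 ± 0.16 that was 0.11 with the GC trend removed. The median of the list moved from 0.279 to 0.0545 with the GC trend removed.

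Gpd1, the cytosolic glycerol-3-phosphate dehydrogenase that links glycolysis, gluconeogenesis from glycerol and the glycerol backbone of triglyceride, was 421, 437, 275, 222 and 404 CPM fed and 173, 145, 144, 341 and 327 fasted in Plin2+/+ livers, and 377, 337, 245, 216 and 289 fed and 505, 464, 742, 327 and 727 fasted in Plin2-null livers. The fed and fasted groups overlapped in both genotypes. The response was -0.64 ± 0.28 in Plin2+/+ livers, not called, and a rise of 0.92 ± 0.28 in Plin2-null livers, an interaction of 1.56 ± 0.40 (SE) with a DESeq2 adjusted p of 0.033. Slc25a10, the mitochondrial dicarboxylate carrier, had -0.32 ± 0.20 and a rise of 0.93 ± 0.20, an interaction of 1.25 ± 0.29 that was 0.86 with the GC trend removed. For both genes replicates 1 and 2 of Plin2+/+ fasted, the libraries of lowest GC slope, were low. For Gpd1 replicate 3 of that group was as low, at 144 CPM with a GC slope of -0.096. Without replicates 1 and 2 the interactions of Gpd1 and Slc25a10 were 1.30 and 0.97. Of the other gluconeogenic genes, Pck1 had 0.43 ± 0.59 and G6pc 0.22 ± 0.59, with fed values of Pck1 spread from 191 to 2636 CPM.

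Rises with a negative interaction, that is smaller rises in Plin2-null livers, included some genes that insulin restrains through FOXO transcription factors. Not all such genes did so: the estimates of Pck1 and G6pc, given above, were above 0 with wide errors. Txnip, an inhibitor of thioredoxin that restrains glucose uptake, was 83.2, 73.6, 81.3, 72.0 and 106 CPM fed and 459, 445, 749, 363 and 258 fasted in Plin2+/+ livers, and 102, 72.3, 71.7, 73.8 and 67.9 fed and 225, 183, 265, 142 and 216 fasted in Plin2-null livers. The fed groups overlapped, and 4 of 5 Plin2+/+ fasted livers lay above every Plin2-null fasted liver. It rose by 2.45 ± 0.22 and by 1.41 ± 0.22, an interaction of -1.04 ± 0.30 (SE) with an edgeR adjusted p of 0.239. It was -1.01 with the GC trend removed and -1.04 without the 2 libraries of lowest GC slope.

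Pdk4, the kinase that shuts pyruvate dehydrogenase in fasting, was 29.3, 26.5, 25.9, 12.8 and 22.1 CPM fed and 552, 234, 447, 172 and 148 fasted in Plin2+/+ livers, and 47.1, 23.3, 22.0, 47.1 and 34.4 fed and 331, 94.7, 179, 68.3 and 132 fasted in Plin2-null livers. The fasted groups overlapped. It rose by 3.74 ± 0.47 and by 2.21 ± 0.44, an interaction of -1.52 ± 0.60 (SE). Ppargc1a, the coactivator PGC-1α of gluconeogenesis and oxidation, was 47.6, 63.5, 97.2, 26.8 and 26.7 CPM in Plin2+/+ fasted and 15.0, 30.8, 21.6, 12.5 and 11.9 in Plin2-null fasted livers, with 5.23 to 14.7 and 5.35 to 11.2 in the fed groups. It rose by 2.58 ± 0.40 and by 1.19 ± 0.38, an interaction of -1.39 ± 0.54. Insr, the insulin receptor, rose by 0.42 ± 0.11 in Plin2+/+ livers and changed by 0.05 ± 0.11 in Plin2-null livers, an interaction of -0.38 ± 0.16. The insulin, FOXO and glucocorticoid list had 19 genes tested, of which 13 were below 0 and 4 had an unadjusted p under 0.05 below 0, with a median of -0.21, or -0.284 with the GC trend removed. The other 6 were above 0, 1 of them with an unadjusted p under 0.05: Per1, a clock gene that glucocorticoids induce, with 2.12 ± 0.82. The median fasting response of the 19 genes was 0.905 in Plin2+/+ and 0.985 in Plin2-null livers, so by this measure the list did not rise less. Of the 19, 13 rose in Plin2+/+ and 11 in Plin2-null livers, where 20.9% and 18% of all genes rose.

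Slc16a10 had one of the smallest p-values below 0, and most genes of the urea cycle and amino acid breakdown also lay below 0. This transporter of aromatic amino acids was 76.5, 94.3, 107, 66.6 and 79.0 CPM fed and 229, 276, 282, 172 and 196 fasted in Plin2+/+ livers, and 80.9, 75.2, 113, 154 and 88.1 fed and 114, 104, 139.9, 158 and 95.5 fasted in Plin2-null livers. The Plin2+/+ groups were separate, the Plin2-null groups overlapped, and every Plin2-null fasted liver lay below every Plin2+/+ fasted liver. It rose by 1.45 ± 0.20 in Plin2+/+ livers and changed by 0.26 ± 0.19 in Plin2-null livers, an interaction of -1.19 ± 0.27 (SE) with an adjusted p of 0.215 in edgeR and 0.026 in DESeq2. Cps1, the first enzyme of the urea cycle, ran from 6171 to 18460 CPM in Plin2+/+ fasted and from 4514 to 7230 in Plin2-null fasted livers and had an interaction of -0.84 ± 0.33. Slc25a32, a mitochondrial carrier of folate or FAD named here after its values were seen, had -1.03 ± 0.26. Of 18 genes of the urea cycle and amino acid breakdown 15 were below 0, 3 of them with an unadjusted p under 0.05, and the median was -0.14, below 0 in all 33 alternatives.

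Lists of cell cycle, matrix and ribosomal genes lay above 0. The shares of all genes to read them against were 21.7% falling and 20.9% rising in Plin2+/+ livers, 18.1% and 18% in Plin2-null livers, 51.8% with an interaction above 0, and 7.01% above 0 at an unadjusted p under 0.05. Of 19 cell cycle genes 13 fell in Plin2+/+ and 8 in Plin2-null livers, 18 had an interaction above 0 and 4 an unadjusted p under 0.05, with a median of 0.559 (0.473 with the GC trend removed). Mcm2, a subunit of the replicative helicase, had 1.06 ± 0.40 (SE). Of 13 extracellular matrix genes 10 fell in Plin2+/+ and 6 in Plin2-null livers, 11 were above 0, and the median was 0.550, or 0.368 with the GC trend removed. Of the matrix genes 3 had an unadjusted p under 0.05, all above 0, and 0 did with the GC trend removed. Col1a1, the alpha 1 chain of type I collagen, fell by 2.12 ± 0.32 and by 0.99 ± 0.31. Beside them, 8 of 11 stellate cell markers were above 0, with a median of 0.342 (0.184 with the GC trend removed), and their summed level was 342 to 480 CPM in Plin2+/+ fasted and 358 to 482 in Plin2-null fasted livers; its part in the matrix values was not tested. Igfals, which carries IGF1 in blood, is on none of these lists and fell by 1.98 ± 0.24 and by 1.07 ± 0.24. Its own list, growth hormone and STAT5, had 8 genes above 0 and 6 below, from -1.56 to 0.907, with a median of 0.0552. Of 18 cytosolic ribosomal proteins 3 rose and 2 fell in Plin2+/+ livers and 11 rose in Plin2-null livers; 15 had an interaction above 0 and 8 an unadjusted p under 0.05, and the median of 0.350 was 0.230 with the GC trend removed. Rpl3 had the largest estimate of that list, 0.86 ± 0.28. Reads of ribosomal protein genes can be split with their processed copies, so these values are uncertain.

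Of the 12 genes below 0 with the smallest p-values, Slc16a10 is described above. Fam208a, a core part of the HUSH silencing complex, was 41.0, 35.5, 42.7, 42.7 and 40.8 CPM fed and 65.9, 71.1, 53.1, 53.2 and 44.0 fasted in Plin2+/+ livers, and 41.0, 42.4, 49.7, 55.7 and 47.1 fed and 31.0, 39.7, 31.8, 44.5 and 26.1 fasted in Plin2-null livers. It rose by 0.50 ± 0.14 in Plin2+/+ and fell by 0.44 ± 0.14 in Plin2-null livers, an interaction of -0.95 ± 0.20 (SE), or -0.73 with the GC trend removed. Zhx3, a zinc finger and homeobox repressor, was 129.6, 132, 136, 103 and 100.1 CPM in Plin2+/+ fasted and 61.2, 64.8, 71.6, 78.2 and 80.76 in Plin2-null fasted livers, with no overlap. Its interaction was -0.74 ± 0.16, or -0.73 with the GC trend removed. Pnisr, a splicing-related protein, had -0.58 ± 0.14 and Msl1, a scaffold of a histone acetyltransferase complex, -0.55 ± 0.13; DESeq2 called all 4. The 12 also included Rb1cc1, an autophagy scaffold (-0.63 ± 0.16), Sos1, an exchange factor of RAS (-0.55 ± 0.14), and Slc1a2, the glutamate transporter of pericentral hepatocytes (-0.86 ± 0.21). In Fam208a and Zhx3 the highest 2 or 3 of the Plin2+/+ fasted livers included replicates 1 and 2, the libraries of lowest GC slope. Without those 2 libraries the estimates were -0.75 for Fam208a, -0.65 for Zhx3, -0.49 for Pnisr and -0.44 for Msl1.

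Across all genes, 10 were called in both genotypes with opposite signs, against 4206 called in both with the same sign. Of the 10, 5 rose in Plin2+/+ and fell in Plin2-null livers and 5 did the reverse. Besides Fam208a, Agpat2 and Btla they held Uhrf2, a ubiquitin ligase that binds modified DNA (-0.67 ± 0.17, SE), and Ptp4a3, a protein phosphatase (0.95 ± 0.23), both named after their values were seen, and 5 genes with predicted-gene or RIKEN names. Beside H2-Ab1 the other gene called by edgeR in any alternative was 2500002B13Rik, a RIKEN-named gene. It was 0.933, 0.945, 0.938, 0.853 and 0.708 CPM fed and 2.94, 2.87, 2.57, 2.36 and 2.35 fasted in Plin2+/+ livers, and 0.986, 1.16, 1.04, 1.74 and 1.45 fed and 1.18, 1.66, 0.777, 1.38 and 0.908 fasted in Plin2-null livers. All 5 Plin2+/+ fasted livers lay above all other 15 libraries. It rose by 1.58 ± 0.20 in Plin2+/+ livers and changed by -0.10 ± 0.21 in Plin2-null livers, an interaction of -1.68 ± 0.29 with an adjusted p of 0.0602 in edgeR and 0.00011 in DESeq2.

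Tgm2, tissue transglutaminase, was 54.1 to 97.2 CPM in Plin2+/+ fasted livers and 107 to 167 in the Plin2-null libraries of both feeding states; it fell by 0.85 ± 0.14 in Plin2+/+ livers and changed by 0.09 ± 0.14 in Plin2-null livers, an interaction of 0.94 ± 0.20 (SE), or 0.66 with the GC trend removed. Tlcd2, a membrane protein of the TLC family, was 11.4 to 16.6 CPM in Plin2+/+ fasted and 20.8 to 39.0 in Plin2-null fasted livers, without overlap, and had an interaction of 1.02 ± 0.21. The value of Gapdh is uncertain, since the gene has many processed copies. It was 6.21, 56.5, 115, 5.89 and 7.63 CPM in Plin2+/+ fed and 9.49, 123, 10.6, 176 and 206 in Plin2-null fasted livers, and 3.74 to 11.3 CPM in the libraries of the other 2 groups. The values fell into low and high libraries within a group, and the interaction of 6.50 ± 1.34 rests on which libraries were high. On the circadian clock list, Dbp, a clock output factor, had 1.98 ± 0.59, and 0.96 without replicate 5 of Plin2+/+ fed, where it stood at 4.41 CPM against 0.669 to 0.777 in the other 4; Cirbp, a cold-inducible RNA-binding protein of the heat shock and cold-inducible list, had 1.38 ± 0.44 and 0.98 without that library.

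The integrated stress response list held targets of the factor ATF4 that respond to shortage of amino acids. Its median was 0.478 (0.338 with the GC trend removed), and 11 of 12 genes were above 0 (8 of 12 with the GC trend removed). In the main fit 1 of the 11 had an unadjusted p under 0.05, where 7.01% of all genes lay above 0 at that level. That gene was Psat1, an enzyme of serine synthesis, at 0.251 to 0.651 CPM in Plin2+/+ fed, 0.169 to 0.316 in Plin2+/+ fasted, 0.187 to 0.623 in Plin2-null fed and 0.264 to 0.777 in Plin2-null fasted livers. All groups overlapped, and the interaction was 1.65 ± 0.52 (SE). Atf5, a far more abundant member at a mean of 151 CPM in Plin2+/+ fed livers, rose by 0.83 ± 0.17 and by 0.94 ± 0.17, an interaction of 0.10 ± 0.24. The summed level of the list overlapped in all 4 groups, from 490 to 686 CPM.

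Medians near 0 were found for several lists. The acute phase and complement list had 11 of 18 genes above 0, 0 with an unadjusted p under 0.05 in edgeR and a median of 0.0687; the antioxidant, autophagy and growth hormone lists had medians of 0.0716, 0.0397 and 0.0552. Other lists lay further from 0 with few genes at an unadjusted p under 0.05. Of all genes, 21.7% fell in Plin2+/+ and 18.1% in Plin2-null livers. The interaction was above 0 for 51.8% of all genes, and for 7.01% it was so at an unadjusted p under 0.05. Of 17 unfolded protein response genes 14 fell in Plin2+/+ and 11 in Plin2-null livers, with a median interaction of 0.251, or 0.397 with the GC trend removed, and 0 at an unadjusted p under 0.05 in edgeR. Interferon-response genes fell in both, 15 of 16 in Plin2+/+ and 14 of 16 in Plin2-null livers, with 14 of 16 interactions above 0, a median of 0.340 (0.424 with the GC trend removed) and 1 at an unadjusted p under 0.05, the antiviral gene Oasl1 (1.42). Female-biased liver genes had the lowest median of the lists, -0.49, with 4 of 12 above 0 and 0 at an unadjusted p under 0.05. The genes of the largest averaged responses differed among themselves. Among the 5 that fell furthest, Car3, a carbonic anhydrase, fell by 7.30 ± 0.60 and by 5.68 ± 0.56, an interaction of 1.62 ± 0.65 (SE) that stayed between 1.23 and 1.88 when single libraries were left out. Prok1, a secreted prokineticin, had 1.97 ± 1.32, Fdps the value given above, and Selenbp2 0.02 ± 0.76. Among the 5 that rose furthest, Apoa4, an apolipoprotein, had an interaction of 0.19 ± 0.53, Acot2, a mitochondrial acyl-CoA thioesterase, 0.57 ± 0.34, and Cidec the value given above. Adra2a, the alpha 2A adrenergic receptor, rose by 9.98 in Plin2+/+ and 7.74 in Plin2-null livers from near 0. It reached 11.0 to 33.5 CPM in Plin2+/+ fasted and 1.51 to 9.30 in Plin2-null fasted livers, without overlap. Fed values were 0.0804 CPM or less in Plin2+/+ and 0.0234 or less in Plin2-null livers. The Adra2a interaction of -2.23 ± 2.66 had an error wider than the estimate, which ran from -4.93 to -1.91 over all alternatives. These intervals do not show that the genotypes respond alike.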

How the data were processed

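Libraries were strand-specific mRNA libraries of liver RNA, per the labels' protocols. Whole-number read counts for mouse Ensembl genes and a TPM table were deposited by the authors. Reads were aligned with HISAT2 1.2.1 and counted with featureCounts 1.4.6-p1, per the submitters' processing notes, which name the human build GRCh38 while the identifiers are mouse ones. The sources used here do not state the annotation or strand setting, and reads of overlapping or antisense genes cannot be told apart. Deposited TPM columns, under a header shifted by 1 cell, each followed the deposited counts of their own library. A chi-square test of the counts of all 40 same-group pairs gave at least 45.3 for each degree of freedom, so each library counted as 1 replicate. Symbols matched 55141 of 55487 identifiers; GENCODE M21 (GRCm38) gave the GC content.

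Counts were fitted in R 4.3.3 with edgeR 4.0.16 (filterByExpr, TMM, glmQLFit with the robust option, 1 coefficient per group, all 20 libraries), and p-values were adjusted by Benjamini-Hochberg over all genes tested. CPM values are TMM-scaled, and SEs were taken from the fold change and its F statistic (log2 fold change divided by the root of F). DESeq2 1.42.0 and limma 3.58.1 gave alternatives, the latter as voom and on log2(TPM + 1) and log2(TPM + 0.1) values from the authors' table. The GC trend was removed as a per-library offset. The fits were tested on simulated counts. Lists are described by counts and medians, without a test. The members, the 44 lists and the rule for named genes were chosen with earlier results of these data known. The rule took Plin2, the 12 genes of smallest interaction p in each direction and the 8 of smallest DESeq2 adjusted p in each direction at a mean of at least 5 CPM with a symbol that is no predicted-gene, RIKEN, pseudogene or clone name, up to 4 members of each list and any member of a list described, and the 5 genes rising and falling most in the averaged response. Python 3.11.15 with matplotlib 3.10.9 drew the figures. Some genes are not reported here.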

Additional observations from a re-analysis of the deposited data

Results flagged for a closer look

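Within groups, the libraries of 72 results (70 genes, the share of 18S rRNA-like counts and the GC slope) were compared, and a library was set aside for a closer look where its gap to the nearest other library was over 0.71 of the range of its group. That was so in 18 of 288 groups, where chance gives about 1 in 20. Replicate 1 of Plin2-null fed stood high for Plin2 (32.1 CPM), Ehhadh (321), Acsl1 (1154), Cpt1a (337), Fgf21 (1.75) and Txnip (102), and low for Ms4a1 (0.526). Replicate 4 of Plin2-null fed was low for Srebf1 (71.6 CPM) and high for Cyp4a14 (964). In Plin2+/+ fed livers, replicate 1 was high for Ehhadh (513 CPM), replicate 2 was low for Fam208a (35.5), replicate 4 was low for Srebf1 (78.0) and Fitm1 (0.1), and replicate 5 was high for Cd79a (1.34), Cd79b (1.61) and Dbp (4.41). Replicate 4 of Plin2+/+ fasted was high for Ciita (1.24 CPM), and replicate 5 of Plin2-null fasted for Plin2 (130.4).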

How the results depend on the processing

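The interaction held 0 calls in edgeR, 63 in DESeq2, 2 in limma voom, 1 without a filter on low counts and 2 with a stricter one, and 0 to 1 when single libraries were left out; with edgeR these were H2-Ab1 or 2500002B13Rik. Its 2250 genes at an unadjusted p under 0.05 became 1491 on log2(TPM + 1), 1162 without both Plin2+/+ fasted libraries of lowest GC slope, 1430 without the library of highest rRNA-like share and replicate 2 of Plin2+/+ fasted together (both settings chosen after seeing the data), and 1655 to 3108 when single libraries were left out. The share of falling genes with a blunted response was 54.9% with library size alone, 43.6% on log2(TPM + 1) and 45.8% on log2(TPM + 0.1), and 59.8% to 65.9% with single libraries left out; that of rising genes was 69.9% and 70.5% on the TPM values and 54.1% to 61.3%. Calls of the averaged response ran from 8223 to 8729, of the Plin2-null response from 5104 to 6051 and of the Plin2+/+ response from 6147 to 7078 with single libraries left out, and 34 to 38 of the 44 lists had a median above 0. The genotype difference in fasted livers, 528 genes, was 1433 in DESeq2, 108 with library size alone, 319 without a filter, 27 and 39 on log2(TPM + 1) and log2(TPM + 0.1), 138 with the rRNA-like share as a covariate, 4 without the 2 libraries of lowest GC slope and 5 in the other joint setting; it was 13 without replicate 2 of Plin2+/+ fasted, 15 without replicate 5 of Plin2-null fasted and 1794 without replicate 5 of Plin2+/+ fasted. That in fed livers was 3 genes, 7 in DESeq2 and 3 to 4 with single libraries left out. The cause of these moves was not tested. Of 6840 values of 208 named genes over 33 alternatives, 6800 kept the direction of the main fit, as did 1403 of 1452 list medians. Most of these genes were chosen for small interaction p-values in these data. The alternatives refit the same libraries or part of them, so a kept direction was likely beforehand and is no separate evidence. In simulated counts of 16174 genes at this depth and number of libraries, edgeR recovered 7.46% of 1.5-fold, 53.7% of 2-fold and 93.9% of 4-fold changes. It also made 5 calls among unchanged genes. Each simulated gene was drawn on its own, without the GC trends of single libraries, so recovery in the presence of such trends was not tested. No paired analysis was possible because the titles give each library a number of its own.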
